A study of Mus musculus with 4 samples.

Results

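The genes examined were the chemokine, interleukin and TNF families of tibialis anterior (TA) muscle, taken as every gene symbol in the deposited count table that begins with Ccl, Cxcl, Ccr, Cxcr or Ackr and a digit, Cx3c, Il and a digit, Tnfsf or Tnfrsf. Of 13825 genes in the table, 66 were members, and 62 of them were tested, among 13084 genes whose count averaged 10 or more over the libraries. The members were 16 chemokine ligands, 4 chemokine receptors, 3 atypical chemokine receptors, 5 interleukins, 19 interleukin receptor chains, 4 TNF ligands, 13 TNF receptors, the interleukin-18 binding protein Il18bp and the opposite-strand transcript Tnfsf13os. RNA-seq was performed on muscles of adult male WT (C57BL/6J) and whole-body Fgf21 knockout (Fgf21KO) mice, 14 days after the sciatic nerve of one leg was cut. The other leg served as sham, so the 2 legs of each mouse are not independent, and the strain background of the knockout line was not given in the sources used here. WS and WD are the sham and denervated WT groups, and KS and KD those of Fgf21KO mice. Each was 1 library made from 4 pooled muscles, so no group had a replicate. Fgf21 itself was not analysed here, and the knockout could not be checked by it.

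Chemokines are small secreted proteins that direct migrating leukocytes through receptors coupled to G proteins, and atypical chemokine receptors bind chemokines without that coupling and remove them. Interleukins act mostly through paired receptor chains that recruit JAK kinases or, in the IL-1 and IL-17 groups, MyD88-type or Act1 adaptors. TNF ligands are trimers whose receptors recruit TRAF adaptors and NF-kB, caspases through a death domain, or neither in the case of decoy receptors. In skeletal muscle these families are known both from fibres, which secrete IL-15 and carry the TWEAK receptor Fn14 (Tnfrsf12a), and from the macrophages, endothelial cells and fibro/adipogenic progenitors between the fibres.

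Reads per library were 25249879 (WS), 29150147 (WD), 34141303 (KS) and 27740920 (KD), and the members together took 16545, 26467, 19999 and 25900 of them. Their lowest count was 2 and their median ran from 53.5 to 85 counts, and 9, 4, 9 and 5 members had 10 counts or fewer in WS, WD, KS and KD. The median of all genes was higher, at 296, 431, 378 and 405 counts in the same order. Every analysed gene had at least 1 read in each library, and genes of these families such as Il6, Il1b, Ccl5, Ccl7 and Tnfsf11 were not among the members and were not analysed here. The floor of 3 counts stood at 0.129, 0.0919, 0.101 and 0.097 CPM (counts per library size in units of 1e6, scaled with TMM factors). Intervals below are 95% intervals of counting error alone (exact Clopper-Pearson for a ratio of 2 libraries), since no spread between mice could be measured.

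The libraries carried the marks of their surgery. Runx1, Ncam1 and Gadd45a, genes of the adult denervation response, were all called higher after denervation (at least 2-fold, with an adjusted p below 0.05 by edgeR's quasi-likelihood test over the 4 libraries), Runx1 with 44, 5422, 53 and 5459 counts in WS, WD, KS and KD. All 12 macrophage markers were measured and 4 of them were called higher (Adgre1, Cd68, Mrc1 and Itgam). The summed level of the 12 was 35.0 and 38.1 CPM in sham and 77.3 and 76.0 CPM in denervated muscle (WT first). Itgam had 36, 51, 11 and 65 counts in WS, WD, KS and KD. Its log2 ratio of denervated over sham was 0.01 in WT and 2.31 in Fgf21KO muscle. All 7 endothelial markers were measured and 4 were called lower (Cdh5, Kdr, Flt1 and Vwf), with sums of 585 and 476 CPM in sham against 261 and 256 CPM in denervated muscle. The 7 markers of fibro/adipogenic progenitors had no call, with sums of 472 and 483 against 312 and 319 CPM. No measured marker was at 0, and the T cell, NK cell, B cell and satellite cell markers were not analysed here. In RNA of whole muscle, fewer cells of a type and less RNA per cell cannot be told apart, and the part of these cell types in the results below was not tested. The 13 mitochondrial protein genes took 27.0, 19.4, 30.4 and 20.6% of the counts in WS, WD, KS and KD.

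Levels between genes were compared as CPM per kilobase of exon within each library, since the order differed between sham and denervated muscle. In sham muscle Il6st (gp130, the signal chain shared by the IL-6 cytokines) was highest at 19.7 in WS and 18.1 in KS, before Cxcl12 (15.8 and 13.3), Cxcl14 (12.7 and 15.3) and Tnfrsf21 (death receptor 6, 11.1 and 11.6). In denervated muscle Il6st (21.6 in WD and 23.5 in KD), Tnfrsf21 (22.5 and 23.4), Tnfrsf12a (23.5 and 23.4) and the decoy receptor Tnfrsf23 (19.8 and 22.5) stood close together at the top. Tnfrsf12a had been at 4.86 and 5.25 in sham muscle and Tnfrsf23 at 1.10 and 0.875. The fractalkine receptor Cx3cr1 had 0.0382 to 0.170 CPM per kilobase over the 4 libraries.

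**Figure D1:**
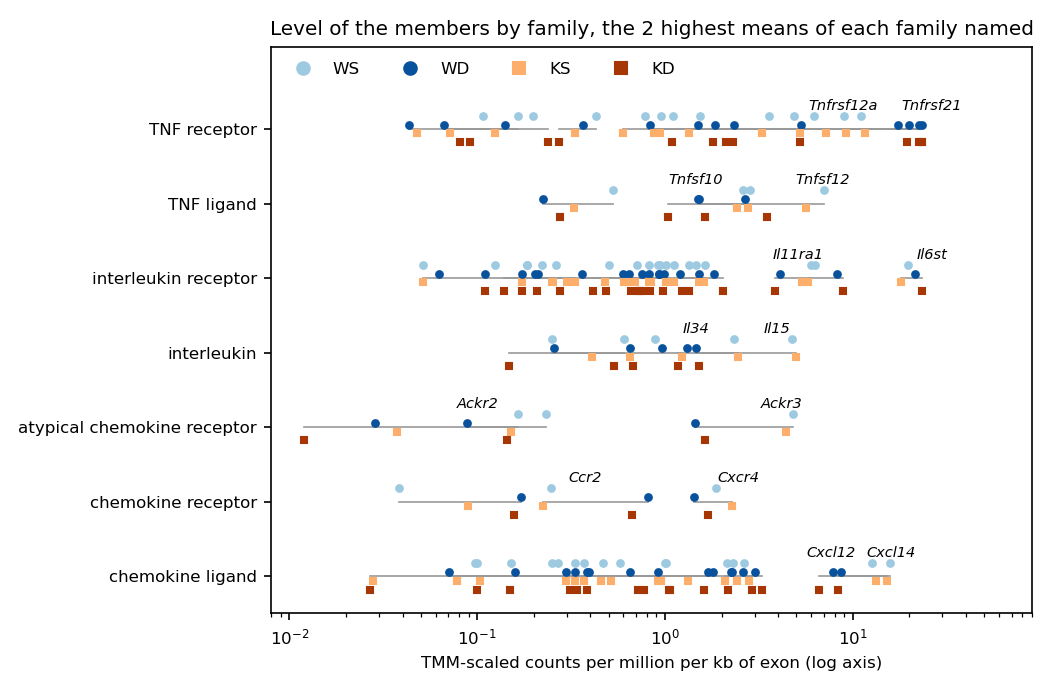
Level of 63 members of 7 families in each library, as TMM-scaled CPM per kilobase of exon (log axis); each point is 1 library and each grey line spans the 4 libraries of 1 gene. Il6st was highest in both sham libraries, and Il6st, Tnfrsf21, Tnfrsf12a and Tnfrsf23 lay between 19.8 and 23.5 in the denervated ones.

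To ask what denervation did to these families, the effect was tested over all 4 libraries by edgeR's quasi-likelihood test with genotype as a covariate. This treats the genotypes as replicates of each other, so its p-values do not measure spread between mice. P-values were adjusted by Benjamini-Hochberg over all genes tested, and a call needed a log2 fold change of at least 1 in size. Of 62 members, 21 were called (33.9%), against 13.1% of all genes tested. Called higher were 12 (19.4%, against 6.84% of all genes) and called lower were 9 (14.5%, against 6.24%). Without the fold threshold 33 members passed (53.2%), close to the 53.5% of all genes. Members had lower counts than all genes, and shares at like counts were not compared, here or below. Whether the higher shares at the fold threshold follow from the lower counts was not tested. The median log2 fold change of the members was 0.04, beside 0.01 for all genes, so members moved in both directions. With library totals in place of TMM scaling the median of all genes shifted by 0.32, and 15 members were called higher and 5 lower. Cxcl12, Tnfrsf14, Tnfsf12 and Tnfsfm13 were the calls lost there.

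Over all genes tested, 6.84% were called higher and 6.24% lower. By family, 5 of 12 tested TNF receptors were called higher and 2 lower, and 2 of 4 TNF ligands were called lower. Among chemokine ligands 3 of 13 were called higher and 1 lower, and among atypical receptors 2 of 3 lower. Of the chemokine receptors, Ccr2 and Cx3cr1 were called higher and Cxcr4 was not called. Interleukins gave 2 lower of 5, and interleukin receptor chains 1 higher of 19. The TNF receptors held the largest increases and the interleukin receptor chains the smallest share of calls among the 7 families with several members.

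**Figure D2:**
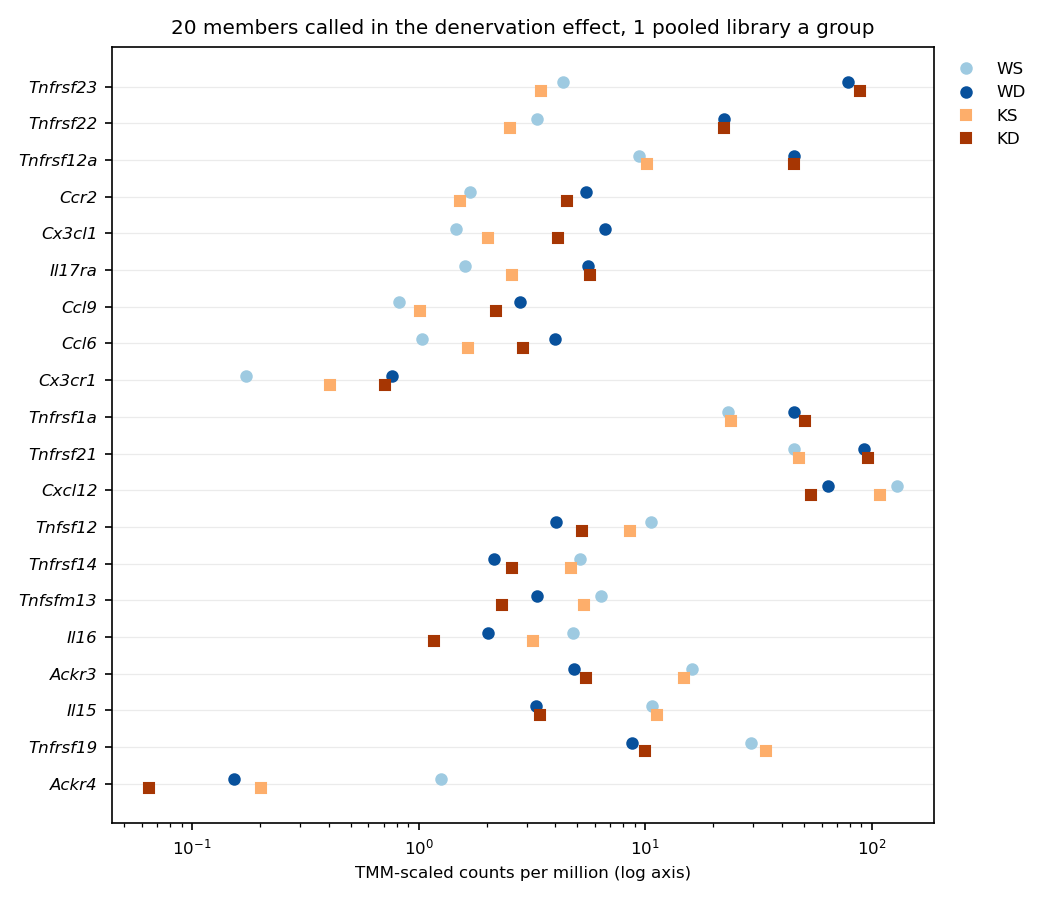
TMM-scaled CPM (log axis) of 20 members called in the denervation effect, with 1 point per pooled library (WS, WD, KS, KD), ordered by log2 fold change. The members were chosen by that effect, so the distance between sham and denervated points follows from the choice. Tnfrsf23 lay at 3.47 to 4.35 CPM in sham and 78.6 to 89.0 CPM in denervated libraries.

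The largest increase was that of the neighbouring TRAIL decoy receptors Tnfrsf23 and Tnfrsf22 on chromosome 7, which bind TRAIL in mice without a functional death domain. Tnfrsf23 had 101 and 2567 counts in WS and WD and 103 and 2753 in KS and KD, a denervation log2 fold change of 4.44 (edgeR quasi-likelihood, adjusted p = 9.96e-23). Its log2 ratio was 4.16 (interval 3.89 to 4.48) in WT and 4.65 (4.40 to 4.98) in Fgf21KO muscle. Sham muscle of both genotypes thus held it at 3.47 to 4.35 CPM and denervated muscle at 78.6 to 89.0 CPM. Tnfrsf22 had 77, 729, 75 and 686 counts in the same order (log2 fold change 2.94, edgeR adjusted p = 6.00e-16). In GENCODE transcripts, 17.3% of the 50-base windows of Tnfrsf22 were also found in Tnfrsf23, so part of their reads could be counted for either gene. The ligand Tnfsf10 (TRAIL) went the other way, with 318, 260, 435 and 267 counts and a log2 fold change of -0.77, under the fold threshold (edgeR adjusted p = 1.66e-05). The death domain receptor Tnfrsf10b was measured at 54, 65, 54 and 46 counts and had a log2 fold change of -0.25. Of the TRAIL receptors measured, the decoys were therefore the ones called.

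The TWEAK pair moved in opposite directions. Tnfrsf12a (Fn14), the receptor, had 218 and 1482 counts in WS and WD and 301 and 1397 in KS and KD, a log2 fold change of 2.21 (edgeR adjusted p = 8.60e-17). It was 4.81-fold higher in WT and 4.43-fold higher in Fgf21KO muscle after denervation. Its ligand Tnfsf12 (TWEAK) had 247, 132, 254 and 163 counts and a log2 fold change of -1.04 (edgeR adjusted p = 1.69e-05). Its log2 ratio was -1.38 (-1.71 to -1.08) in WT and -0.69 (-0.99 to -0.41) in Fgf21KO muscle. The read-through gene Tnfsfm13, which joins Tnfsf12 to Tnfsf13, was also called lower (148, 109, 160 and 72 counts, log2 fold change -1.06, edgeR adjusted p = 0.000123). Its transcripts shared 46.8% of the windows of Tnfsf12 and 57.3% of those of Tnfsf13 (APRIL), so counts of these 3 genes are uncertain. Tnfsf13 itself had 20, 12, 16 and 14 counts and was not called, nor was Tnfsf13os, the transcript on the opposite strand of that locus (43, 37, 42 and 49 counts). The libraries were stranded, but without a stated strand setting it is unknown whether reads of the 2 strands were counted apart.

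Both of the death domain receptors at high level rose. Tnfrsf21 (death receptor 6) went from 1055 to 3019 counts in WT and from 1415 to 2972 in Fgf21KO muscle (log2 fold change 1.02, edgeR adjusted p = 3.78e-12). Tnfrsf1a went from 537 to 1480 and from 711 to 1563 counts (log2 fold change 1.03, edgeR adjusted p = 8.73e-11). These are the members nearest to the fold threshold among those called higher. The second TNF receptor, Tnfrsf1b, had 137, 290, 153 and 272 counts and a log2 fold change of 0.68 (edgeR adjusted p = 0.000937), under the threshold. Relative to the macrophage marker sum, Tnfrsf1b went from 16.9 to 11.5% in WT and from 13.5 to 11.6% in Fgf21KO muscle.

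TNF receptors were also among the genes that fell. Tnfrsf19 (TROY), an orphan receptor known from the nervous system and hair follicle, had 684 and 285 counts in WS and WD and 1012 and 308 in KS and KD (log2 fold change -1.76, edgeR adjusted p = 7.42e-14). Tnfrsf14 (HVEM), the receptor of LIGHT, had 120, 70, 140 and 80 counts (log2 fold change -1.06, edgeR adjusted p = 0.000326). Tnfrsf11a (RANK) had 23, 13, 22 and 15 counts and a log2 fold change of -0.95 that did not pass (edgeR adjusted p = 0.0763). Its decoy Tnfrsf11b (osteoprotegerin) had 7, 4, 4 and 8 counts and was too low to test. Tnfrsf4 (OX40) and Tnfrsf13b (TACI), receptors of lymphocytes, had at most 46 and 21 counts in a library and were not called.

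Promoters of the TNF receptors called higher are shown because these 5 genes rose together. RefSeq windows of GRCm38.p6 (250 bases up to the annotated start) were found for 4 of the 5, and none was used for Tnfrsf22. The deposited counts were made on GRCm39 per the labels, so the positions below apply to GRCm38.p6 only. Capitals mark matches to the E-box letters CANNTG, the core bound by MyoD-type factors, searched on both strands. Sequences run 5′ to 3′ on the strand of the gene.
Tnfrsf23 (chr7:143685876-143686125, minus strand): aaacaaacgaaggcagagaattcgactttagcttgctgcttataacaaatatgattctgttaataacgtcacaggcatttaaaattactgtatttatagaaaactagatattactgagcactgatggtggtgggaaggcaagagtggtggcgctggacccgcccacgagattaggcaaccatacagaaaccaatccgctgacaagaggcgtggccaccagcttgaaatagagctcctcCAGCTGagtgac
Tnfrsf12a (chr17:23677450-23677699, minus strand): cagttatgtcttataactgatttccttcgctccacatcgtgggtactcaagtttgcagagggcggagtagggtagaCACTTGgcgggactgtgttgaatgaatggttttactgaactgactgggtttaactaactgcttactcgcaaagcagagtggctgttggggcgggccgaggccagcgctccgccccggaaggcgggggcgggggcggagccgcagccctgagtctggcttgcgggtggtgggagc
Tnfrsf21 (chr17:43016305-43016554, plus strand): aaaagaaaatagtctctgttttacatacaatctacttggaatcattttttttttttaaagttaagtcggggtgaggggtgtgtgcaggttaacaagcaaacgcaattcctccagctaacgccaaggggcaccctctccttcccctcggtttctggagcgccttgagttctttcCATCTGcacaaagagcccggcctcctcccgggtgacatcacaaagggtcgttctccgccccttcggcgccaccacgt
Tnfrsf1a (chr6:125349473-125349722, plus strand): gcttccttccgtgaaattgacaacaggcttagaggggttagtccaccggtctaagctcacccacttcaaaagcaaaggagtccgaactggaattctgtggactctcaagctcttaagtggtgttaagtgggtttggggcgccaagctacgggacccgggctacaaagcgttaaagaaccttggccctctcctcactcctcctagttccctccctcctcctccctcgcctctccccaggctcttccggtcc
Tnfrsf23, Tnfrsf12a and Tnfrsf21 each held 1 match, starting 12, 174 and 77 bases before the annotated start, and Tnfrsf1a held none. The match of Tnfrsf23 reads CAGCTG. Such letters are common: CANNTG stood in 56.4% of the promoters of genes tested and in 66.0% of all 27025 promoters, and CAGCTG in 11.4% and 12.8%. None of the 4 windows held TGTGGT (a Runx core), TGANTCA (AP-1) or the NF-kB consensus, which stood in 10.3%, 3.95% and 8.65% of the promoters of genes tested. A match describes letters and not binding.

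Among the adaptors behind these receptors, 2 of 27 TRAF, death domain adaptor, IAP, IKK and NF-kB genes tested were called higher and none lower, beside 6.84% and 6.24% of all genes. They were Nfkb2, the precursor of p52 (324, 1456, 355 and 1305 counts, log2 fold change 1.75, edgeR adjusted p = 9.37e-15), and Bcl3, a nuclear partner of p52 (21, 48, 16 and 58 counts, log2 fold change 1.24, edgeR adjusted p = 0.00741). Relb, the other partner of p52, stood at a log2 fold change of 0.94, under the threshold. Others went down, also under the threshold, such as Casp8 (-0.70), Nfkbia (-0.57), Tnfaip3 (-0.52) and Nfkb1 (-0.31). The median of the 27 was 0.21. Among 7 TNF family genes with other names, Eda2r, the receptor of ectodysplasin A2, had 369, 7169, 577 and 7131 counts (log2 fold change 3.67, edgeR adjusted p = 5.83e-24). Cd27 was the gene of that list called lower (55, 20, 100 and 31 counts, log2 fold change -1.83, edgeR adjusted p = 2.57e-05).

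Chemokine receptors of monocytes and macrophages were called higher over the 4 libraries, at low counts. Ccr2, the receptor of CCL2, had 39 and 178 counts in WS and WD and 45 and 140 in KS and KD (log2 fold change 1.64, edgeR adjusted p = 2.01e-06). Cx3cr1, the fractalkine receptor, had 4, 25, 12 and 22 counts (log2 fold change 1.33, edgeR adjusted p = 0.0295). Its log2 ratio was 1.79 (interval 0.62 to 4.14) in WT. In Fgf21KO muscle it was 0.72 (-0.26 to 1.96), an interval that held no change. Fewer than 30 counts stood behind each value of Cx3cr1. Cxcr4 had 78, 84, 122 and 95 counts and a log2 fold change of -0.40 that did not pass (edgeR adjusted p = 0.155).

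The ligands that rose were Cx3cl1, Ccl9 and Ccl6. Cx3cl1 (fractalkine), a membrane-bound chemokine and the ligand of CX3CR1, had 34 and 217 counts in WS and WD and 60 and 128 in KS and KD (log2 fold change 1.58, edgeR adjusted p = 8.74e-06). Ccl9 and Ccl6, neighbours on chromosome 11 and ligands of CCR1, had 19, 91, 30 and 68 counts and 24, 131, 49 and 89 counts. Their log2 fold changes were 1.42 and 1.33 (edgeR adjusted p = 0.000677 and 0.000424). Ccl2, the main ligand of CCR2, was too low to test at 4, 11, 10 and 11 counts. In these 3 ligands KD lay above both sham libraries and below WD.

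Macrophage markers moved with these genes. Their sum was 2.21-fold higher in WT and 1.99-fold higher in Fgf21KO muscle. As a percentage of that sum, Ccr2 went from 4.80 to 7.05 in WT and from 3.97 to 5.96 in Fgf21KO muscle. The share was thus higher in the denervated library of each genotype, by factors of 1.47 and 1.50, with no test of these ratios. Ccl6 changed 1.76-fold relative to the sum in WT and 0.875-fold in Fgf21KO muscle, and Cx3cr1 2.01-fold and 0.884-fold. The part of macrophages in these values was not tested.

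**Figure D3:**
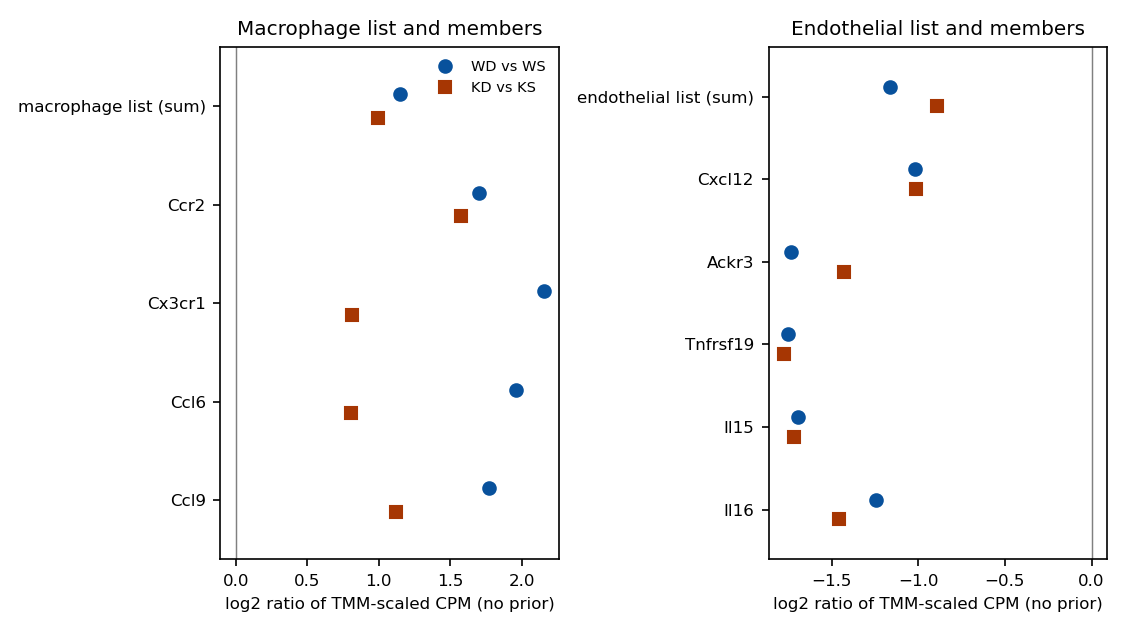
Log2 ratio of denervated over sham libraries (TMM-scaled CPM, no prior count) for the summed macrophage list with 4 members (left) and the summed endothelial list with 5 members (right), in WT (circles) and Fgf21KO (squares). Ccr2 lay to the right of the macrophage sum in both genotypes, while Cxcl12 lay near the endothelial sum and Ackr3, Tnfrsf19 and Il15 to its left.

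CXCL12 and its scavenger fell together. Cxcl12, the homeostatic chemokine that binds CXCR4 and ACKR3, had the most counts of any chemokine at 3003 and 2083 in WS and WD and 3230 and 1665 in KS and KD (log2 fold change -1.02, edgeR adjusted p = 1.90e-12). Ackr3, which removes CXCL12, had 374, 158, 440 and 170 counts (log2 fold change -1.58, edgeR adjusted p = 2.69e-10). The endothelial sum fell to 0.446-fold in WT and 0.538-fold in Fgf21KO muscle. Relative to it Cxcl12 changed 1.11-fold and 0.92-fold, and Ackr3 0.674-fold and 0.689-fold. Marker sums of fibro/adipogenic progenitors fell too (472 to 312 CPM in WT and 483 to 319 CPM in Fgf21KO muscle). Of 8 listed muscle fibre markers only 3 were analysed here (Myh1, Mylpf and Tnni2), and their sum fell as well (41913 to 25476 CPM and 40571 to 27726 CPM). Myh1 alone made up 24303 CPM of it in WS and 21603 CPM in KS. The part of endothelial cells or of these other cell types was not tested.

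Ackr4, the scavenger of CCL19, CCL21 and CCL25, had 29 and 5 counts in WS and WD and 6 and 2 in KS and KD (log2 fold change -2.62, edgeR adjusted p = 0.000911), and at such counts the fitted value depends on the prior count. Its WT log2 ratio was -2.57 (interval -4.75 to -1.64), while its Fgf21KO ratio of -1.02 (-4.98 to 0.84) rests on 8 counts in all. Its ligands Ccl21a (53, 86, 72 and 88 counts), Ccl21b (20, 30, 25 and 27) and Ccl25 (43, 93, 82 and 78) were not called, and Ccl19 was too low to test at 2 to 4 counts. Ccl21b shared 71.7% of its windows with Ccl21a, so reads could be split between them. Cxcl14, a chemokine with a level per kilobase above that of Cxcl12 in WD, KS and KD and below it in WS, had 540, 514, 830 and 470 counts, with a log2 fold change of -0.72 under the threshold (edgeR adjusted p = 2.79e-06). Cxcl9, an interferon-induced ligand of CXCR3, had 70, 64, 118 and 72 counts and a log2 fold change of -0.70 (edgeR adjusted p = 0.0214). Ccl27a (127, 201, 170 and 214 counts), Ccl27b, which shares 61.4% of its windows with Ccl27a and is uncertain for that reason (10, 25, 12 and 14), and Cxcl16 (33, 39, 41 and 36) were not called, and neither was Ackr2, the scavenger of inflammatory CC chemokines (12, 9, 14 and 14). Ccl24, a ligand of CCR3, was too low to test at 10, 14, 4 and 4 counts.

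Of 7 chemokine genes with other names, Cd74 was called higher, and the receptors Ccrl2 and Cmklr1 lower with log2 fold changes of -1.43 and -1.32. Among 17 genes of chemokine receptor signalling, Rgs2 was called higher (1.02). Arrb1 (-1.83) and Grk2 (-1.01), which turn off such receptors, were called lower. Both lists stand beside 6.84% of all genes called higher and 6.24% called lower.

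Interleukin ligands fell where they were called. Il15, a cytokine of muscle fibres that is presented by its own receptor chain, had 249 and 108 counts in WS and WD and 334 and 106 in KS and KD (log2 fold change -1.70, edgeR adjusted p = 1.57e-09). Denervated muscle held 0.313-fold the sham level in WT and 0.309-fold in Fgf21KO mice. Il15ra had 615, 594, 709 and 528 counts and a smaller log2 fold change of -0.51 (edgeR adjusted p = 0.000153). Il16, a ligand of CD4, had 111, 66, 95 and 36 counts (log2 fold change -1.34, edgeR adjusted p = 9.02e-05). Il34, the second ligand of the CSF1 receptor, had 106, 84, 142 and 71 counts and just missed the fold threshold at -0.94 (edgeR adjusted p = 0.0011). Il33 (59, 91, 106 and 60 counts) and Il18 (6, 22, 20 and 17 counts) were not called.

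Among receptor chains, Il17ra, the chain common to the IL-17 receptors, was the 1 call. It had 37 and 182 counts in WS and WD and 77 and 177 in KS and KD (log2 fold change 1.44, edgeR adjusted p = 7.79e-06). Its partners were not called: Il17rc had 69, 66, 80 and 81 counts (log2 fold change -0.29, edgeR adjusted p = 0.378) and Il17re 7, 12, 9 and 20 counts. Il17rd, the antagonist Sef, had 209, 130, 226 and 165 counts and a log2 fold change of -0.83 (edgeR adjusted p = 0.000396).

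In the IL-6 group, 2 of 3 receptor chains passed the adjusted threshold, with changes under 2-fold, beside 53.5% of all genes that passed at any fold. Il6st had 5086, 7811, 5981 and 8055 counts, a log2 fold change of 0.25 (edgeR adjusted p = 0.00529). Il11ra1 had 657, 1205, 771 and 1232 counts, a log2 fold change of 0.50 (edgeR adjusted p = 4.31e-05), and it overlaps Ccl27a and shares 15.8% of its windows with Il11ra2. Il6ra, the ligand-binding chain for IL-6, stood at a level of 0.184 CPM per kilobase beside 20.7 for Il6st, averaged over the libraries, with 25, 31, 85 and 46 counts, and its log2 fold change of -0.63 did not pass (edgeR adjusted p = 0.119). Of 12 genes of the IL-6 and colony stimulating factor families with other names, Cntfr was called higher (360, 1512, 541 and 1763 counts, log2 fold change 1.61). Lifr was called lower (2059, 1283, 2581 and 1164 counts, -1.19). Over all genes, 6.84% were called higher and 6.24% lower.

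The other receptor chains with adjusted p below 0.05 were Il20rb (49, 128, 60 and 94 counts, log2 fold change 0.74) and Il1rap (69, 64, 85 and 49 counts, -0.72). Il18bp, which neutralises IL-18, had 64, 128, 51 and 115 counts and a log2 fold change of 0.80 (edgeR adjusted p = 0.00884). Il1r1 (150, 205, 156 and 143 counts), Il4ra (186, 298, 200 and 229), Il10rb (145, 150, 172 and 158), Il13ra1 (81, 100, 93 and 95) and Il2rg (51, 72, 43 and 56) were not called. The remaining chains Il3ra, Il10ra, Il1rl2 and Il11ra2 had 18 to 82 counts in a library and no call. Of 11 IL-1 receptor adaptors 1 was called lower (Tab2), and of 20 JAK, STAT and SOCS genes 1 was called lower (Jak2, log2 fold change -1.18), beside 6.24% of all genes.

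Denervation was then compared within each genotype, by the log2 ratio of 2 libraries with a prior count of 2 and no test. In WT muscle 12 members were at least 2-fold higher and 11 at least 2-fold lower, against 7.18% and 7.61% of all genes. In Fgf21KO muscle 12 were higher and 8 lower, against 7.51% and 6.1% of all genes. With library totals as the scaling these became 14 higher and 5 lower in WT and 16 higher and 4 lower in Fgf21KO muscle. Both genotypes gave such a ratio in 9 members upward (5.1% of all genes) and 6 downward (3.99%). Among the 9 were Tnfrsf12a, Tnfrsf21, Tnfrsf22, Tnfrsf23, Ccr2, Ccl9, Cx3cl1 and Il17ra, and the 6 were Tnfrsf19, Il15, Il16, Ackr3, Ackr4 and Cxcl12. Several sit at the threshold, and with DESeq2 size factors Cx3cl1 and Tnfrsf21 dropped below it in Fgf21KO muscle.

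**Figure D4:**
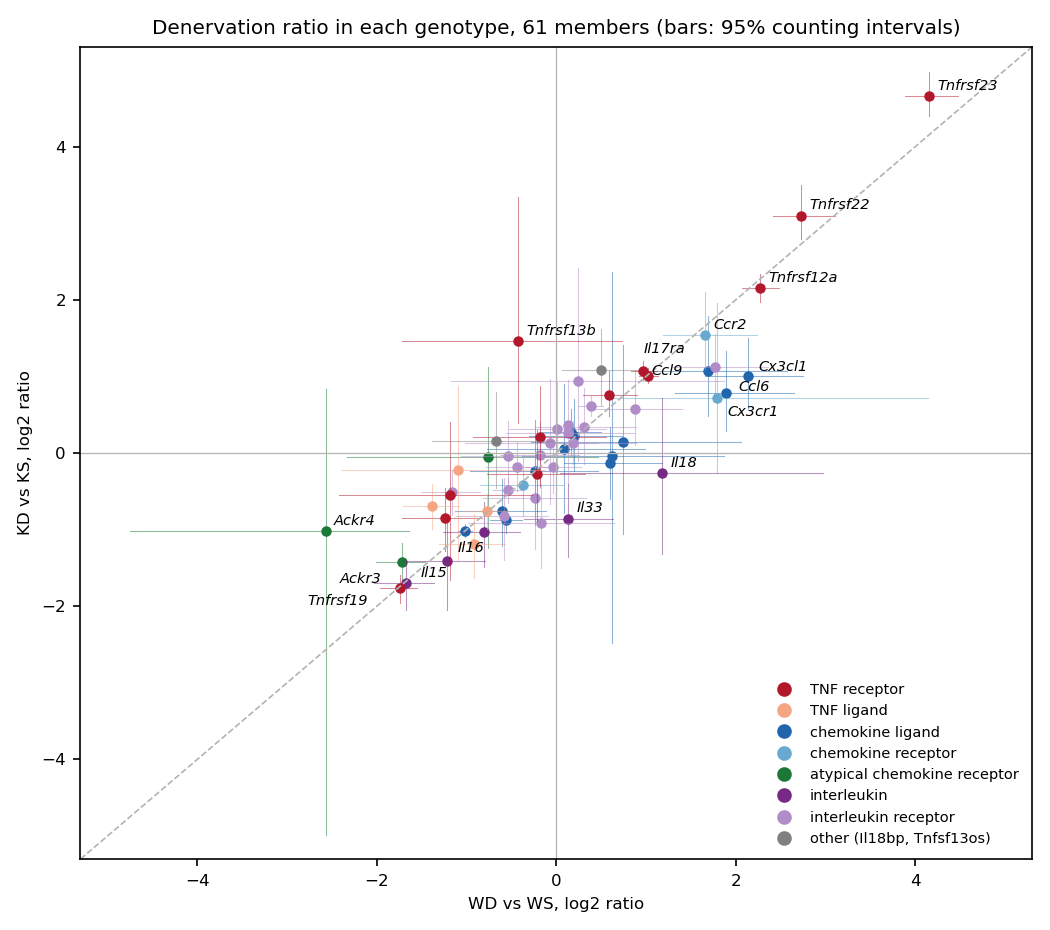
Log2 ratio of denervated over sham library in WT (x axis) and in Fgf21KO muscle (y axis) for 61 of the members tested, with bars for 95% counting intervals and a dashed line of equal ratios. Tnfrsf23, Tnfrsf22 and Tnfrsf12a lay at the upper right near the line, and Cx3cl1, Ccl6, Cx3cr1 and Il18 lay below it.

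Between the genotypes, 6 members had denervation ratios at least 1 apart on the log2 scale, against 4.11% of all genes, and in 4 of them the interval left out 0 (3.23% of all genes). These shares too were not taken at like counts. With 1 library per group the difference between the ratios could not be tested. In Cx3cl1 the log2 ratio was 2.13 (1.66 to 2.75) in WT and 1.01 (0.58 to 1.50) in Fgf21KO muscle, a difference of -1.12 (-1.83 to -0.46). In Ccl6 it was 1.89 (1.32 to 2.65) and 0.78 (0.28 to 1.34), a difference of -1.11 (-1.96 to -0.35). After scaling, both chemokines were higher in KS than in WS, with intervals that held no change. The log2 ratios were 0.45 (-0.17 to 1.12) for Cx3cl1 and 0.64 (-0.06 to 1.44) for Ccl6. In KD vs WD both were lower, at -0.67 (-1.01 to -0.36) and -0.47 (-0.89 to -0.08). The other differences rest on few reads: Il18 had 6 counts in WS and 22 in WD against 20 and 17 in Fgf21KO muscle, and Tnfrsf13b had 13 and 13 against 6 and 21. Cx3cr1 and Ackr4 were also at least 1 apart, with intervals that hold 0.

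Il33, an alarmin of stromal cells, had 59 and 91 counts in WS and WD and 106 and 60 in KS and KD. After scaling its log2 ratio was 0.13 (-0.35 to 0.63) in WT, an interval that held no change. In Fgf21KO muscle it was -0.86 (-1.36 to -0.41), a difference of -0.99 (-1.67 to -0.36). Tnfrsf23 differed by 0.50 (0.10 to 0.91) and Tnfsf12 by 0.69 (0.28 to 1.11), in both cases with a higher ratio in Fgf21KO muscle. Tnfrsf12a, Tnfrsf21, Tnfrsf19, Il15 and Cxcl12 had ratios within 0.12 of each other in the genotypes.

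The effect of Fgf21 loss over both surgeries was tested by the same edgeR model with surgery as a covariate. No member was called, against 0.176% of all genes, and none had an adjusted p below 0.05 without the fold threshold, against 0.673%. DESeq2's Wald test also called none. At an unadjusted p below 0.05 there were 5 members of 62, beside 7.93% of all genes.

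These 5 were Ccl28, Ackr4, Cxcl12, Il6ra and Il16. Ccl28, a chemokine of mucosal epithelia, had 11 and 25 counts in WS and WD and 4 and 4 in KS and KD (genotype log2 fold change -2.20, edgeR adjusted p = 0.0976). Ackr4 had a genotype log2 fold change of -2.27 (edgeR adjusted p = 0.110). Cxcl12, at far higher counts, had a genotype log2 fold change of -0.25 (edgeR adjusted p = 0.174), with ratios of -0.25 (-0.32 to -0.18) in sham and -0.25 (-0.34 to -0.15) in denervated muscle. Il6ra had a log2 fold change of 1.03 (edgeR adjusted p = 0.259) and Il16 of -0.67 (edgeR adjusted p = 0.417).

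In sham muscle alone (KS vs WS), 2 members were at least 2-fold higher, Il6ra and Il18 (0.887% of all genes), and 3 at least 2-fold lower, Ackr4, Ccl28 and Tnfrsf13b (1.15% of all genes). Il6ra had 85 counts in KS and 25 in WS, a log2 ratio of 1.36 (0.75 to 2.12), while the interval of Tnfrsf13b held no change. After denervation (KD vs WD) Ccl28 alone was at least 2-fold apart, at -2.08 (-4.55 to -1.03), against 1.55% of all genes apart in either direction. Each of these members had fewer than 90 counts in every library. The comparisons share their libraries with the denervation ratios above, so a high or low value in 1 library enters both.

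**Figure D5:**
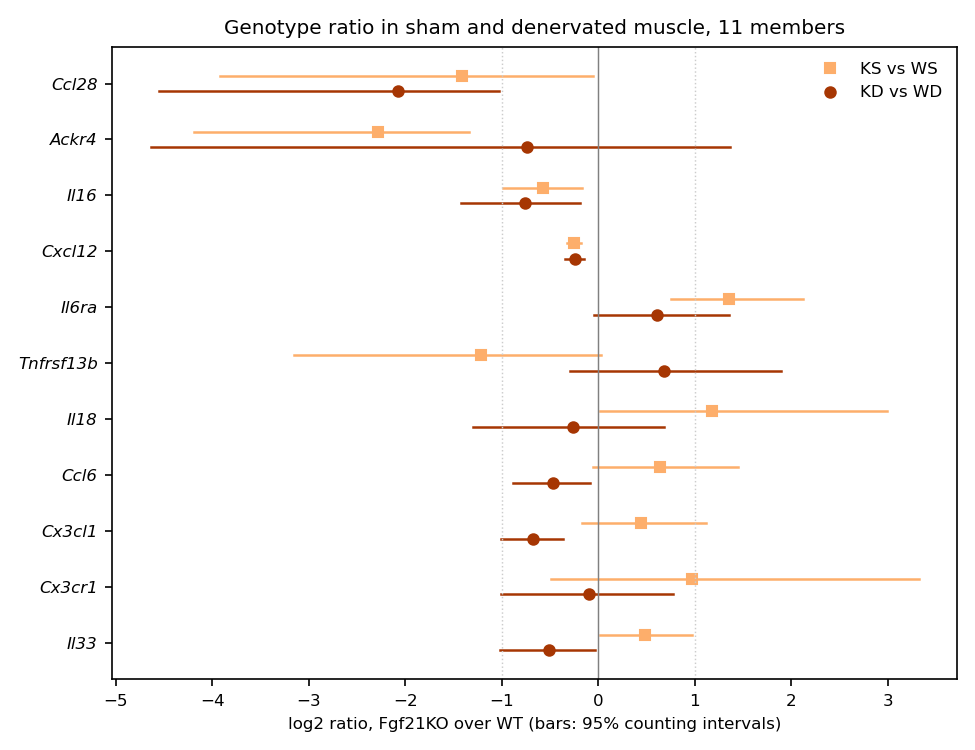
Log2 ratio of Fgf21KO over WT in sham (squares) and denervated muscle (circles) for 11 members, with bars for 95% counting intervals, a line at 0 and dotted lines at 2-fold. The members are those at least 2-fold apart between genotypes, those at an unadjusted p below 0.05, those with denervation ratios at least 1 apart, and Il33. Ccl28, Ackr4, Il16 and Cxcl12 lay below 0 in both surgeries. Cx3cl1, Ccl6 and Il33 lay above 0 in sham and below it in denervated muscle. The sham intervals of Cx3cl1 and Ccl6, the denervated intervals of Ackr4, Il18 and Il6ra, and both intervals of Cx3cr1 and Tnfrsf13b held 0.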

How the data were processed

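RNA-seq was performed on 4 pooled TruSeq Stranded mRNA libraries. The authors deposited read counts per gene, without normalization. They also deposited a table named for FPKM, whose log2 values equal the log2 of each count times 1 factor per library, plus 1. The submitters' processing notes name FastQC and GRCm39; aligner, counter and strand setting were not given in the sources used here. Labels describe a 2 mm nerve piece and an untouched right leg, whereas the study's methods describe a longer piece and a sham-operated limb.

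Counts were scaled by TMM in edgeR 4.0.16 (R 4.3.3) and log2 ratios used a prior count of 2. Only the 2 additive quasi-likelihood effects were tested, over 13084 genes averaging 10 counts or more, with Benjamini-Hochberg adjustment. That model keeps 1 residual degree of freedom, which is the difference in denervation response between the genotypes. Its common biological coefficient of variation of 0.0681 thus does not measure spread between mice. On simulated counts of 13084 genes with 200 changed 4-fold, it recovered at least 99.0% for denervation and 99.5% for genotype. At most 4 and 3 unchanged genes were called. These counts were drawn at the model's own common variation, so recovery does not measure power with spread between mice. Exon lengths and 50-base windows came from GENCODE M21 (GRCm38), and neighbours and promoters from RefSeq (GRCm38.p6); all 66 members matched RefSeq and 52 had a promoter.

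Members were named if called, if at least 2-fold apart in both denervation comparisons or between genotypes, if the genotypes' ratios were at least 1 apart, if in a fixed ligand and receptor group, or if among the 5 highest of a family. Other genes came from fixed lists. 1 member is counted in the totals but not reported here. Members and lists were chosen with earlier results of these data known. Alternatives were DESeq2 (1.42.0) size factors and Wald test, total counts, other filters, prior counts, assumed variations, call rules and the second table.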

Additional observations from a re-analysis of the deposited data

How the results depend on the processing

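No paired analysis was possible because the groups have no replicate numbers, beyond the genotype term of the denervation model, which already sets WD against WS and KD against KS. With 1 pooled library each none could be left out. Of the 21 members called for denervation, none changed direction under any alternative, over the 4 libraries or within either genotype. Members apart between genotypes were not checked for direction. Of 59 counts, 42 stayed within 1.5 times their value. The members called for denervation numbered 18 to 21 under other scalings, filters and DESeq2's Wald test, and 33 without the fold threshold; the 3 calls missing at 18, Ackr4 and Cx3cr1 among them, had a mean count under 50 and no adjusted p in DESeq2. Assuming a biological variation of 0.4 in edgeR's exact test left 1 member apart in WT and 1 in Fgf21KO muscle after denervation (Tnfrsf23 in both), and 0 in KS vs WS and KD vs WD. On the second deposited table, whose pseudocount shrinks low genes, these counts were 14, 9, 0 and 0. For KS vs WS (5 members) a mean count of at least 50 left 0, a prior count of 5 left 3 and an assumed variation of 0.1 left 2. For KD vs WD (1 member) no filter and a prior count below 1 each gave 2, while a mean count of at least 50 and an assumed variation of 0.1 gave 0. Of the 6 members with denervation ratios at least 1 apart between genotypes, 2 had a mean count of at least 50 (Ccl6 and Cx3cl1). Where no other reason is given, the cause was not tested. Depth limits the members with few counts, such as Ccl28 (4 counts in KS and in KD), Ackr4 (2 in KD) and Cx3cr1 (4 in WS).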
